A study of Homo sapiens with 3 samples.

Results

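A small set of BxPC-3 cells with the highest summed level of interferon lambda 1, T-cell-attracting chemokines and early antiviral transcripts was described here. Cells were barcodes with at least 6500 unique molecular identifiers (UMIs), at least 500 genes and at most 20% of UMIs from mitochondrially encoded genes, with 3 libraries pooled. Each cell was scored by its summed UMIs of IFNL1, CCL5, CXCL10, CXCL11, OASL, RSAD2, IFIT2 and CH25H per 10000 UMIs, and the top 3% were taken. This gave 169 members of 5640 cells. Because the cells were chosen by these 8 genes, their levels in the members are a description and carry no test. The working name, interferon lambda and chemokine producing cells, held for some members only: 58 of 169 had an IFNL1 UMI, 121 had a CXCL10 UMI and 163 had a CXCL11 UMI, while all 169 had an OASL UMI. The members are therefore called high-scoring cells below.

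BxPC-3 is an established human pancreatic ductal adenocarcinoma line. Stably EGFP-labelled and mCherry-labelled cells were combined in equal number and held in suspension, where live cells enter others and form cell-in-cell structures (entosis). Flow sorting then gave a double-positive population (EGFP+/mCherry+) and a single-positive population (one colour alone), and parental cells were sequenced as the reference. Whether the single-positive library holds both colours is not stated, and the labels' protocol speaks of expanded cells without a time. Each population had 1 library made with a 10x Chromium 5' kit, so no difference has a replicate check, no p-value was computed, and intervals cover counting error only. The libraries held 62517276 (double-positive), 51637677 (single-positive) and 65107147 (parental) UMIs, of which at least 97.7% lay in 1940, 1291 and 2409 cells. Between 1 and 6 cell barcodes were shared by any pair of libraries, and none of them belonged to a high-scoring cell. No doublet caller was run, because a cell-in-cell pair would itself read as a doublet.

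Type I interferons (IFNB1 and the IFNA family) and type III interferons (IFNL1 to IFNL4) are secreted when a cell senses viral or displaced self nucleic acid through receptors such as RIG-I (DDX58) and MDA5 (IFIH1). They act on neighbouring cells through IFNAR1 and IFNAR2 or through IFNLR1 and IL10RB, and JAK-STAT signalling then turns on antiviral genes that carry an interferon-stimulated response element (ISRE). Type III receptors are known mainly from epithelia. IFNL1 and IFNB1 promoters are activated by interferon regulatory factors together with NF-kB, and CCL5, CXCL10 and CXCL11 attract T cells and natural killer cells.

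The promoters of IFNL1, IFNL2, IFNB1 and CXCL10 are shown because the genes of the set were high in the same few cells. RefSeq promoter windows (GRCh38.p14) were matched for IFNL1, CXCL10, CXCL11, RSAD2 and CH25H among the 8 genes, and for IFNB1, IFNL2 and IFNL3; CCL5, OASL and IFIT2 had no entry. The 250 bases before the annotated start are printed, with matches in capitals to the ISRE core GAAANNGAAA or to the NF-kB consensus site on either strand. The NF-kB site was searched in a narrow form that needs a pyrimidine at its centre and in a wider form that takes any base there, the wider one added after these sequences were seen; capitals mark both.
IFNL1, chr19:39296157-39296406, plus strand: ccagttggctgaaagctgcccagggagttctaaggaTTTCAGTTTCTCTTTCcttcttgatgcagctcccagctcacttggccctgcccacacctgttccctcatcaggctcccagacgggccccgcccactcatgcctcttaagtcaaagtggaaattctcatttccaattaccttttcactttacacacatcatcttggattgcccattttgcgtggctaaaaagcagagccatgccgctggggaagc
IFNL2, chr19:39268146-39268395, plus strand: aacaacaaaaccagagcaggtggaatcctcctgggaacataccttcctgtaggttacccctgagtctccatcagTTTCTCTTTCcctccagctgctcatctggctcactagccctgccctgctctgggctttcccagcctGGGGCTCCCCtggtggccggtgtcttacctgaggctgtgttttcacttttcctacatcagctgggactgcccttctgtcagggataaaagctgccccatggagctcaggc
IFNB1, chr9:21077943-21078192, minus strand: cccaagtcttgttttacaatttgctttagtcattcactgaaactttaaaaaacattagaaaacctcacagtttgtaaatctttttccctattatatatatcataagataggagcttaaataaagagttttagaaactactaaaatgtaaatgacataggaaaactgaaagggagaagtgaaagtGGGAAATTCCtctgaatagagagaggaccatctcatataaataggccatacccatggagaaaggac
CXCL10, chr4:76023498-76023747, minus strand: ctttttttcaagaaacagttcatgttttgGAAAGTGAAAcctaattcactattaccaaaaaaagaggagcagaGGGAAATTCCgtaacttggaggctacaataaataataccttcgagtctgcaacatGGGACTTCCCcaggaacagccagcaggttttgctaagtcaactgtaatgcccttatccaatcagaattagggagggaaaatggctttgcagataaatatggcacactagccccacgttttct
IFNL1 held 2 ISRE matches that overlap each other, on the opposite strand, ending 204 and 198 bases before the start. That start is the RefSeq one, and the end of this window lies inside the GENCODE span of IFNL1 given below. IFNL2 and CXCL10 each held 1 ISRE match and 1 NF-kB match of the narrow form, which did not overlap. In the windows printed, the wider form was found at 1 place in IFNB1, at 2 in CXCL10 and at 1 in IFNL2. Of the windows not printed, 1 of IFNL3 held ISRE and NF-kB matches at the same distances as IFNL2. The CXCL11 window held 1 match of the wider form and no ISRE match, and 1 RSAD2 window held an ISRE match. The IFNL1 window held no NF-kB match of either form, and the IFNB1 window no ISRE match. Over all 27305 genes with a window, 3.71% held an ISRE match and 8.22% an NF-kB match of the narrow form (11.8% of the wider form). Among genes at least 2-fold higher in the high-scoring cells of all 3 libraries (described below), 26 of 69 genes with a window, or 37.7%, held an ISRE match, against 3.75% of all genes counted in that comparison. An NF-kB match was present in 14 of these 69 genes, or 20.3%, against 10.7% of all genes counted, and with the wider form in 16, or 23.2%, against 15.2%. A match is a description of letters and not evidence of binding.

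High-scoring cells were found in all 3 populations. They were 61 of 1940 double-positive cells, or 3.14% (exact 95% binomial interval 2.41% to 4.02%), 24 of 1291 single-positive cells, or 1.86% (1.19% to 2.75%), and 84 of 2409 parental cells, or 3.49% (2.79% to 4.30%). The single-positive share was the lowest. The log2 ratio of shares was 0.76 for double-positive over single-positive cells (0.06 to 1.504) and -0.91 for single-positive over parental cells (-1.63 to -0.24). For double-positive over parental cells it was -0.15, and its interval of -0.65 to 0.34 spans equal shares. Median depth differed between the libraries, at 29963.5, 38137 and 23290 UMIs per cell in double-positive, single-positive and parental cells, and the part of depth or of library preparation in these shares was not tested. The score has no gap at its threshold: the lowest high-scoring cell had 20.07 and the highest cell outside the set had 20.05 UMIs per 10000. The median was 43.9 inside and 0.314 outside, and 40.1% of cells outside had none of the 8 transcripts.

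OASL, an antiviral 2'-5'-oligoadenylate synthetase-like protein, was the most abundant of the 8 transcripts, at 1974, 3435 and 2268 UMIs per 1000000 UMIs (CPM) in high-scoring double-positive, single-positive and parental cells, against 44.6, 43.1 and 56.4 CPM in all other cells of the same libraries. IFIT2, which binds viral RNA and is an early target of interferon regulatory factors, stood at 1335, 1957 and 1116 CPM, against 11.1, 14.3 and 16.9 CPM. CXCL10 stood at 607, 1158 and 1023 CPM, against 11.5, 6.13 and 16.9 CPM. In each case every library's high-scoring cells lay far above every library's other cells, as the choice of cells makes them. CXCL11 was the steadiest of the chemokines, at 621, 686 and 766 CPM, against 10.2, 6.46 and 12.4 CPM in other cells. CCL5 was at 199, 602 and 274 CPM, against 4.42, 0.63 and 4.50 CPM, and RSAD2, the radical SAM enzyme viperin, at 178, 359 and 239 CPM, against 7.06, 5.83 and 8.32 CPM. IFNL1 reached 61.3, 220 and 108 CPM in high-scoring cells, against 0.068, 0.041 and 0.228 CPM elsewhere. CH25H, which makes 25-hydroxycholesterol, reached 3.09, 93.6 and 8.86 CPM, against 2 UMIs in all other cells together. High-scoring cells held 67.2% of all UMIs of the 8 genes. RNA outside cells also carried these transcripts: in barcodes with 100 UMIs or fewer CXCL10 stood at 121, 43.3 and 306 CPM and IFNL1 at 1.15, 2.34 and 4.03 CPM in the double-positive, single-positive and parental library.

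The single-positive values rest largely on 1 cell. That cell had a score of 709, against 208 for the next cell, with 67525 UMIs, 7023 genes and 0.375% mitochondrial UMIs, and the 8 genes made up 7.09% of its UMIs. It carried 226 of the 266 IFNL1 UMIs of high-scoring single-positive cells, 112 of 113 CH25H UMIs and all 42 IFNB1 UMIs. Without it, IFNL1 stood at 35.1 CPM in the remaining 23 high-scoring single-positive cells, CH25H at 0.877 CPM, CCL5 at 268 CPM, CXCL10 at 623 CPM, RSAD2 at 139 CPM, IFIT2 at 998 CPM and OASL at 2162 CPM. The single-positive cells were then no longer the highest of the 3 populations in any of these genes.

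**Figure D1:**
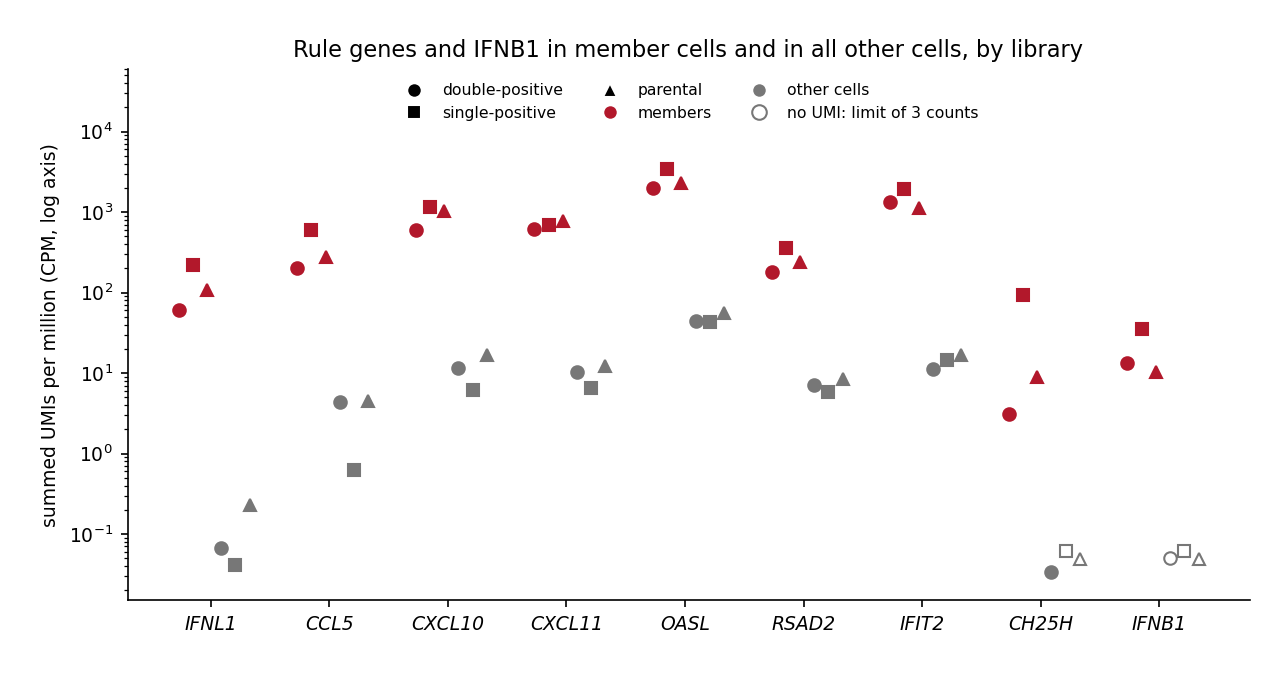
Summed CPM (log axis) of the 8 genes of the score and IFNB1 in high-scoring cells (red) and all other cells (grey) of the double-positive (circles), single-positive (squares) and parental (triangles) libraries; open symbols mark 0 UMIs at the limit of 3 counts. High-scoring cells lie above the other cells in every library, with IFNL1 between 61.3 and 220 CPM against at most 0.228 CPM, and the single-positive value of CH25H comes almost wholly from 1 cell.

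Each gene of the score was also read in cells chosen without it. When a gene was left out and the top 3% were taken again on the other 7, between 88.2% (OASL) and 99.4% (IFNL1 and CH25H) of the chosen cells were the same cells. The left-out gene was higher in them by a log2 ratio of 5.03 (RSAD2, interval 4.91 to 5.14) to 10.51 (CH25H, interval 8.93 to 12.8). For IFNL1 the log2 ratio was 9.81 (9.20 to 10.5), with 626 UMIs in the 169 cells chosen and 22 UMIs in all others. The 8 genes were grouped for being high together in these data, so this describes the score and is no independent support for it. When each UMI of a cell was put at random into 1 of 2 parts and cells were chosen on 1 part, 162 of 169 chosen cells were the high-scoring cells above. Those had been chosen on all UMIs, this part included, so much of the overlap follows from the choice.

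The high-scoring cells did not share a single profile. OASL was the most abundant of the 8 transcripts in 97 cells, CXCL10 in 35, IFIT2 in 28, CCL5 in 7 and CXCL11 in 2, and IFNL1, RSAD2 and CH25H led in none. Cells led by CXCL10 were called G1 in 82.9% of cases, had an IFNL1 UMI in 4 of 35 and carried 383 CPM of PMAIP1. Cells led by IFIT2 were called G1 in 25% of cases, had an IFNL1 UMI in 18 of 28 and carried 1378 CPM of PMAIP1, which encodes the pro-apoptotic BH3-only protein NOXA. Cells led by OASL lay between these, with 52.6% in G1, IFNL1 in 36 of 97 and 1082 CPM of PMAIP1. The same order was seen for BBC3, which encodes the BH3-only protein PUMA, at 144, 224 and 492 CPM in cells led by CXCL10, OASL and IFIT2. Of the high-scoring cells of each library, CXCL10 led in 24.6% of double-positive, 4.17% of single-positive (1 cell) and 22.6% of parental cells. Median depth was 25425, 26222 and 35286.5 UMIs in cells led by CXCL10, OASL and IFIT2, and the part of depth in these differences was not tested.

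**Figure D2:**
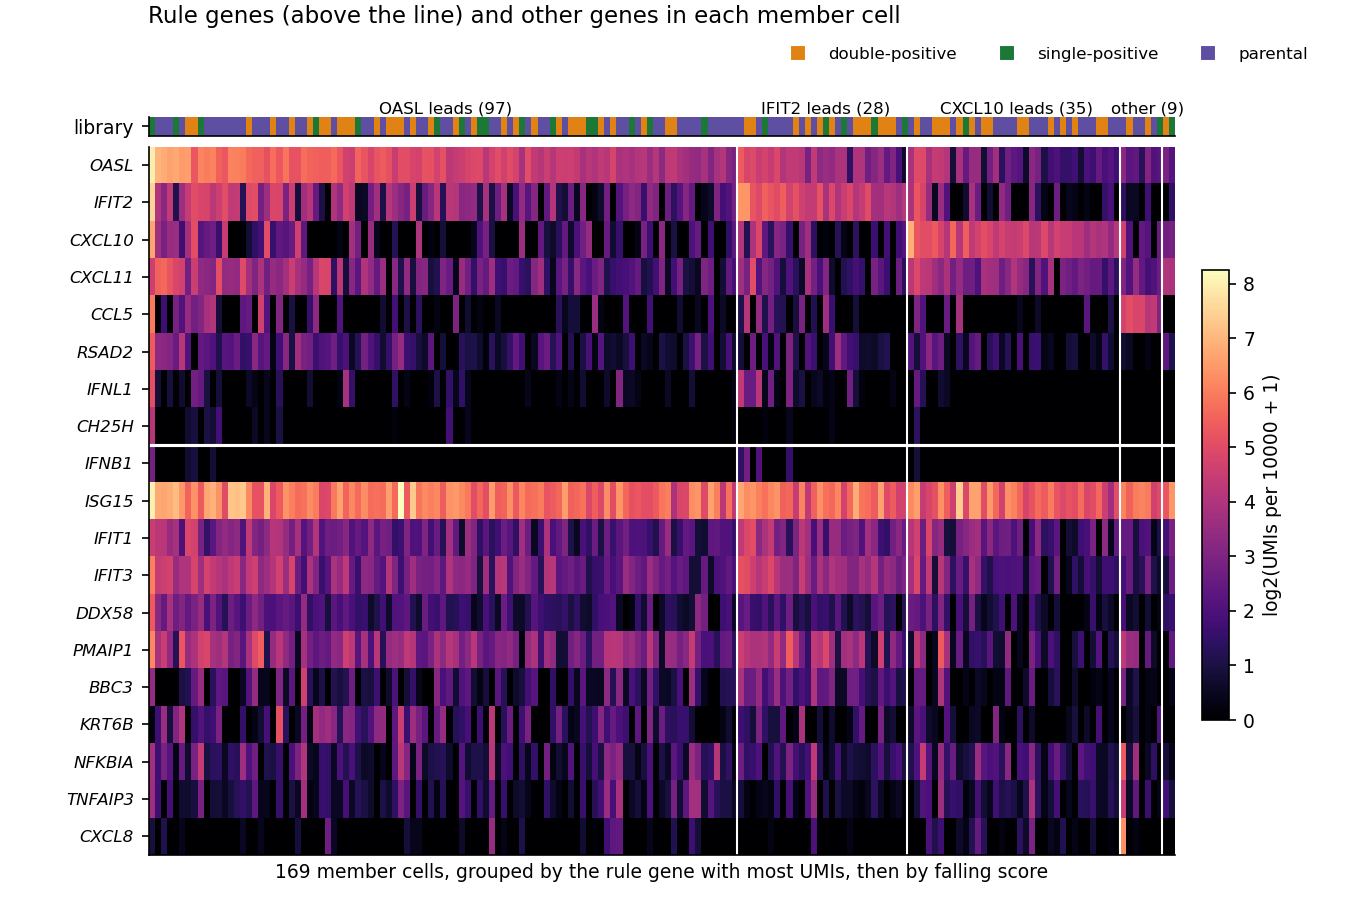
Each column is 1 of the 169 high-scoring cells, grouped by the transcript of the score with most UMIs and sorted by falling score, with its library in the top strip; colour gives log2(UMIs per 10000 + 1), and the line parts the 8 genes of the score from other genes. IFNL1 is mostly dark in cells led by CXCL10 (4 of 35 with a UMI) and is seen in 18 of 28 cells led by IFIT2, and the first column is the single-positive cell with a score of 709.

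Among interferon ligands, IFNL1 was the most abundant and IFNB1 the only type I transcript in these cells. IFNL1 lies at chr19:39296325-39298673 (GRCh38, GENCODE 29) and IFNB1 at chr9:21077105-21077963. An IFNL1 UMI was seen in 24 of 61 double-positive, 7 of 24 single-positive and 27 of 84 parental high-scoring cells, against 4 of 1879, 2 of 1267 and 7 of 2325 other cells. After every cell was thinned to 6500 UMIs, 14.2% of high-scoring cells and 0.037% of other cells kept an IFNL1 UMI, where 34.3% and 0.238% had one before thinning. IFNB1 was not part of the score. It had 91 UMIs in 9 high-scoring cells (4 double-positive, 1 single-positive and 4 parental) and 0 in the 5471 other cells, which makes it at least 954-fold higher against a limit of 3 counts over all other cells. Without the cell with a score of 709, 49 IFNB1 UMIs remained in 8 cells, and 1 double-positive cell held 23 of the 26 double-positive UMIs. IFNL2 had 10 UMIs and IFNL3 12, all in high-scoring cells; their sequences are near-identical and reads could have been split between them. The remaining 17 ligands, among them all 13 IFNA genes of the list, IFNW1, IFNE, IFNK and IFNG, had 0 UMIs in high-scoring cells, and IFNK had 10 UMIs elsewhere.

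The 58 high-scoring cells with an IFNL1 UMI were deeper than the 111 without, with medians of 35286.5 and 24349 UMIs, and the part of depth in which cells showed IFNL1 was not tested. CH25H was seen in 15 of 58 and in 2 of 111 cells, IFNB1 in 7 of 58 and 2 of 111, and CCL5 in 34 of 58 and 34 of 111, while CXCL10 was seen in 69.0% and 73.0%. Of 5354 genes with at least 20 CPM, 16 (0.299%) were at least 2-fold higher in IFNL1-positive than in IFNL1-negative cells of all 3 libraries and 6 (0.112%) at least 2-fold lower. Higher were BBC3, at 506 and 111 CPM (mean log2 ratio 2.14), the prostaglandin receptor PTGER4, at 286 and 93.6 CPM (1.59), and the proliferation antigen MKI67, at 163 and 63.1 CPM (1.39). Lower were the interleukin IL1B, at 64.2 and 205 CPM (-1.71), and the pseudokinase TRIB3, at 14.4 and 87.5 CPM (-2.60). G2M was called in 46.6% of IFNL1-positive and 24.3% of IFNL1-negative cells. Without the cell with a score of 709 the counts were 15 and 7, of which 13 and 6 were the same genes.

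Receptors of these ligands were at low to moderate levels. IFNLR1, the specific chain of the type III receptor, averaged 1.19 CPM in high-scoring cells and 1.31 CPM in other cells over the 3 libraries, and its partner IL10RB 12.4 and 9.87 CPM. IFNAR1 averaged 17.1 and 20.5 CPM, and IFNAR2 52.3 and 30.4 CPM with log2 ratios of 0.68, 1.04 and 0.66 in double-positive, single-positive and parental cells. Of the receptor chains named here, only IFNAR2 passed the floor of 20 CPM. On the list of 6 interferon receptors 3 genes were counted, with a median of 0.44, so this median rests mostly on chains not named here. Of these genes, 0 of 3 were at least 2-fold higher in every library, where 1.74% of all genes were. In JAK-STAT signalling and its feedback, 3 of 7 genes counted were, against the same 1.74%: the ISG15 protease USP18, at 82.2 against 17.6 CPM (mean log2 ratio 2.19), the JAK inhibitor SOCS1, at 36.8 against 9.57 CPM (1.95), and STAT2, at 49.8 against 17.8 CPM (1.47).

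Across all genes, 5449 with at least 20 CPM were counted, with the 8 genes of the score left out. Of these, 95 (1.74%) were at least 2-fold higher in the high-scoring cells of all 3 libraries and 1 (0.0184%) at least 2-fold lower. The median gene was lower by 0.11 on the log2 scale, a shift that median-of-ratios scaling removes (0.0028). With CPM, 30.8% of the genes counted had a mean log2 ratio above 0. Of the antiviral interferon-stimulated genes, 28 of 52 counted were at least 2-fold higher, with a list median of 1.31, and 51 of 52 lay above 0 in every library. IFIT3, a partner of IFIT2 in RNA binding, stood at 872, 1118 and 821 CPM in double-positive, single-positive and parental high-scoring cells, against 57.2, 57.9 and 66.9 CPM in other cells (mean log2 ratio 3.94). Of the IFIT3 UMIs of all high-scoring cells, 8.93% came from the single-positive cell with a score of 709. This cell's share of the single-positive IFIT3 UMIs alone is larger. Without this cell, IFIT3 in single-positive high-scoring cells was no longer the highest of the 3 libraries. HERC5, the ligase that attaches ISG15 to proteins, stood at 232, 218 and 157 CPM, against 12.6, 12.8 and 14.2 CPM (3.92). Each library's high-scoring cells lay above every library's other cells for both genes. ISG20, an RNA exonuclease, had a mean log2 ratio of 3.59, IFIT1 3.61, the mitochondrial nucleotide kinase CMPK2 3.43 and the zinc-finger antiviral protein ZC3HAV1 3.10. ISG15 itself, already at 1168 CPM in other cells, averaged 5745 CPM (2.31).

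Cytosolic RNA sensors were part of this pattern. DDX58 (RIG-I) stood at 202, 459 and 246 CPM in double-positive, single-positive and parental high-scoring cells, against 21.4, 22.5 and 21.0 CPM in other cells (mean log2 ratio 3.71). The single-positive cell with a score of 709 held 18.2% of the DDX58 UMIs of all high-scoring cells, so the single-positive peak rests largely on it. IFIH1 (MDA5) averaged 195 and 23.5 CPM (3.01), and the DNA sensor AIM2 107 and 17.8 CPM (2.58). These were the 3 of 13 sensing genes counted that were 2-fold higher in every library, against 1.74% of all genes (IFIH1 is also on the antiviral list), and the list's median was 0.31, or 0.19 without the cell with a score of 709. MAVS, the adaptor of both RNA sensors, averaged 20.0 CPM in high-scoring cells and 24.1 CPM in other cells (-0.26), and the STING gene TMEM173 29.4 and 21.1 CPM (0.46). Of interferon regulatory factors, IRF1 averaged 206 and 78.9 CPM, with log2 ratios of 0.90, 1.87 and 1.22, IRF3 93.8 and 89.4 CPM (0.07), and IRF7 and IRF8 had 0 UMIs in high-scoring cells. Both were almost absent from other cells too. IRF7 reached at most 0.058 CPM in any bin of other cells ranked by score. The 5 plasmacytoid dendritic markers, IRF8 among them, summed to at most 0.0975 CPM in the other cells of any library. The median of the 4 factors counted was 0.27.

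On the death receptor and apoptosis list, 2 of 18 genes counted were at least 2-fold higher in every library, against 1.74% of all genes (list median 0.41). PMAIP1 (NOXA) stood at 927, 1168 and 914 CPM in double-positive, single-positive and parental high-scoring cells, against 77.6, 63.4 and 71.8 CPM in other cells (mean log2 ratio 3.82), and BBC3 (PUMA) at 205, 250 and 302 CPM, against 28.7, 25.3 and 36.3 CPM (3.07). Of the PMAIP1 UMIs of all high-scoring cells, 9.27% came from the single-positive cell with a score of 709. This cell's share of the single-positive PMAIP1 UMIs alone is larger. Without this cell, PMAIP1 in single-positive high-scoring cells was no longer the highest of the 3 libraries. The list of other p53 targets had 9 of 12 genes counted above 0, against 30.8% of all genes (list median 0.34). Of these 12, 0 were at least 2-fold higher in every library, a count near the share of all genes. MDM2, the p53 ubiquitin ligase, had a mean log2 ratio of 0.79. TNFSF10, the death ligand TRAIL, averaged 152 and 16.3 CPM (3.22), and IL15RA, the receptor chain that presents interleukin-15, 46.2 and 20.6 CPM (1.17). On the list of T-cell chemokines and checkpoint ligands these and CCL3 were the 3 of 6 genes counted at least 2-fold higher in every library. The share over all genes was 1.74%, and the list median was 1.36. KRT6B, a keratin of stressed squamous epithelium, stood at 209, 204 and 265 CPM, against 8.26, 11.7 and 15.5 CPM (4.29), while its close copy KRT6A had a log2 ratio of 0.56; reads shared by the copies make the split uncertain. The Ras-like GTPase gene RHEBL1 stood at 87.1, 65.4 and 64.2 CPM, against 3.01, 3.01 and 3.22 CPM (4.54). The interleukin-7 receptor gene IL7R averaged 110 and 5.97 CPM (4.15) and the guanylate-binding protein gene GBP4 126 and 8.40 CPM (3.91). CCL3L3, a chemokine gene with a near-identical copy in CCL3, had the highest ratio (6.48) but was detected in 16.6% of high-scoring cells, and 24.5% of its UMIs came from 1 cell. CCL3 had 58.6% of its UMIs in 1 single-positive cell. Its 7 UMIs in high-scoring double-positive cells all came from 1 cell, and 60.6% of those in high-scoring parental cells from 1 cell. The call of CCL3 in every library therefore rests on very few cells.

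NF-kB targets had a median of 0.24 over 19 genes counted, with 0.27, 0.20 and 0.58 in the double-positive, single-positive and parental library; 0 were at least 2-fold higher in every library, a count near the 1.74% of all genes. NFKBIA, the NF-kB inhibitor, had log2 ratios of 0.35, 0.92 and 1.57 in double-positive, single-positive and parental cells, and the anti-apoptotic BIRC3 0.71, 1.75 and 1.78. NFKBIZ averaged 175 and 75.5 CPM (1.20). Among 13 neutrophil chemokines and cytokines the median was -0.14, with libraries on both sides of 0. Immediate early genes had 2 of 20 counted at least 2-fold higher, KLF4 at 249 against 60.1 CPM (2.05) and ATF3 at 269 against 63.9 CPM (1.97), with a median of 0.37. In HLA class I presentation 14 of 17 genes lay above 0 in every library but only the peptide transporter TAP1 was 2-fold higher, at 96.9 against 36.5 CPM (1.41). By mean log2 ratio 16 of 17 lay above 0, against 30.8% of all genes counted. HLA-B, whose reads can be shared with other class I genes, averaged 658 and 378 CPM (0.81), and the list median was 0.43.

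Few genes were lower. SPRR2E, a cornified envelope protein gene, was the 1 gene at least 2-fold lower in every library, at 3.61, 7.45 and 2.21 CPM in double-positive, single-positive and parental high-scoring cells, against 38.9, 33.0 and 35.2 CPM in other cells, but it was detected in 4.73% and 7.93% of cells and shares sequence with other SPRR2 genes. ALDH1A3, a retinaldehyde dehydrogenase, averaged 218 and 415 CPM (mean log2 ratio -0.93), the ubiquitin ligase scaffold CUL3 23.5 and 45.5 CPM (-0.94), and the DNA repair enzyme PARP1 44.3 and 78.7 CPM (-0.83). Cholesterol synthesis and uptake had 14 of 20 genes below 0 in every library and a median of -0.23, near the -0.11 of all genes. By mean log2 ratio 4 of these 20 lay above 0, against 30.8% of all genes counted. The sterol carrier STARD4 stood apart at 69.7 and 33.7 CPM (1.04). Entosis adhesion and contraction genes had a median of -0.13. The medians of S phase genes (25 counted) and of G2 and mitosis genes (37 counted) were both -0.27, and G1 was called in 53.8% of high-scoring cells (46.0% to 61.5%) and 43.5% of other cells (42.2% to 44.8%).

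**Figure D3:**
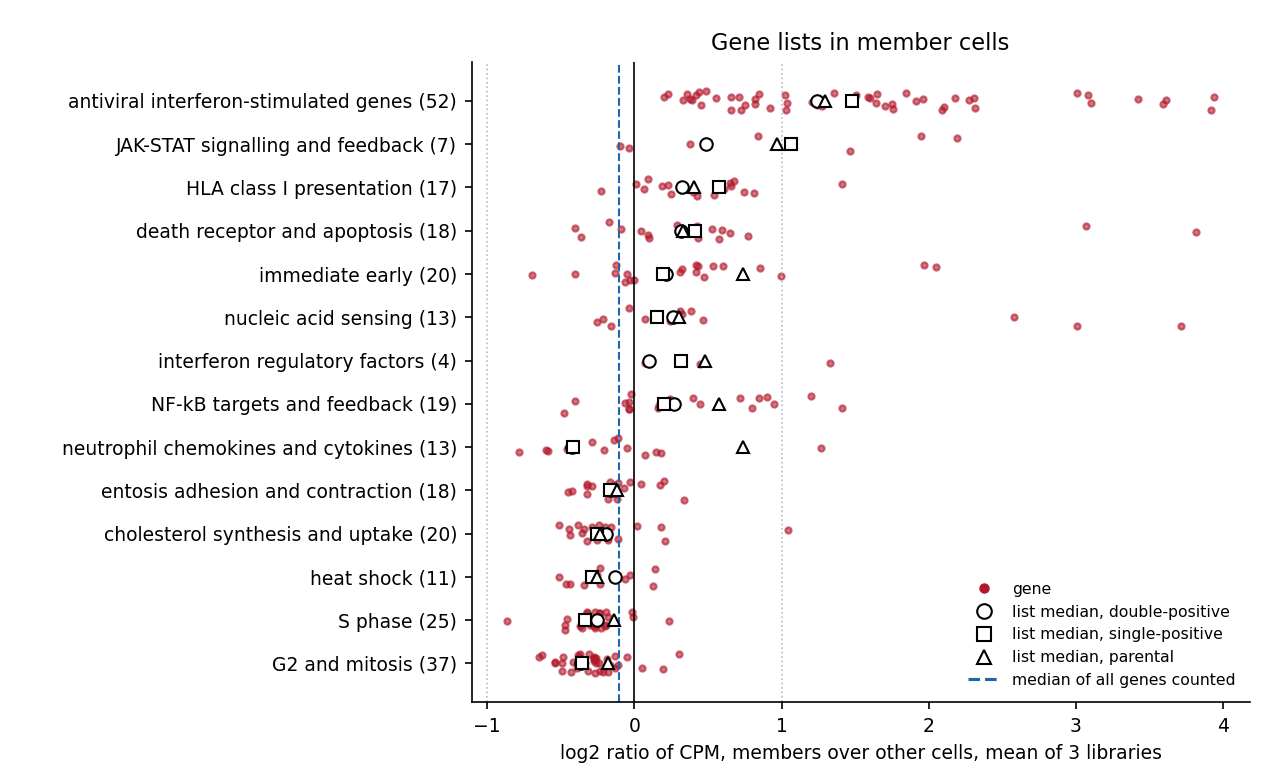
Log2 ratio of CPM in high-scoring over other cells, mean of 3 libraries, for each counted gene (red points) of 14 lists, with the list's median in each library (open symbols) and the median of all genes counted (dashed line at -0.11); numbers in brackets are genes counted. Antiviral genes have a median of 1.31, the lists for S phase and for G2 and mitosis have medians of -0.27, and single genes such as PMAIP1 (3.82) and DDX58 (3.71) lie far from the rest of their lists.

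A comparison group was taken to ask what sets the high-scoring cells apart from other cells with strong interferon-response genes. The 169 other cells with the highest summed level of ISG15, IFI6, IFI27, IFIT1, IFIT3, MX1, OAS1 and IFI44L were 64 double-positive, 14 single-positive and 91 parental cells. Their median on this second score was 202 UMIs per 10000, against 194 in the high-scoring cells and 97.6 in all remaining cells. The responding cells were taken from outside the high-scoring set, and 100 high-scoring cells at or over their lowest second score were left out of them. Their lack of IFNL1, IFNB1 and CH25H UMIs follows from that choice, since cells outside the set had almost none. OASL averaged 2559 CPM in high-scoring and 198 CPM in responding cells, and CXCL10 930 and 55.2 CPM, as the choice of cells fixes. Responding cells still carried genes of the first score, with a median of 2.43 UMIs per 10000 and an OASL UMI in 78.7% of them. Other genes that rise with the first score may differ through the same choice, which was not tested. Of 5401 genes counted without either score's genes, 44 (0.815%) were at least 2-fold higher in high-scoring than in responding cells of all 3 libraries and 6 (0.111%) at least 2-fold lower.

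Of the apoptosis list, 2 of 18 genes counted, PMAIP1 and BBC3, were at least 2-fold higher than in responding cells of every library (list median 0.08). PMAIP1 averaged 1003 CPM in high-scoring, 184 CPM in responding and 70.9 CPM in all cells outside the high-scoring set (which include the responding cells), and KRT6B 226, 35.9 and 11.8 CPM. ZC3HAV1 averaged 266, 32.2 and 30.4 CPM and ZFP36L2, an RNA-binding protein that speeds mRNA decay, 309, 48.2 and 57.2 CPM. PLAUR, the urokinase receptor, averaged 2061, 458 and 321 CPM. Of 16 sensing genes counted, 2 were at least 2-fold higher than in responding cells of every library, against 0.815% of all genes. These were DDX58 (mean log2 ratio 1.67) and IFIH1 (1.20). The median of the sensing list was -0.03, with 4 genes above 0 and 6 below 0 in every library. The antiviral list was mixed, with a median of 0.15, 20 of 47 genes above 0 and 8 below 0 in every library, and 6 of 47 at least 2-fold higher, against 0.815% of all genes. Among these were ZC3HAV1 (3.01), HERC5 (2.58) and ISG20 (1.61). HLA-B of the class I list had a mean log2 ratio of -0.42. The median of that list was -0.04 over 17 genes, with 1 above 0 and 5 below 0 in every library. Lower than in responding cells were the mucin MUC1, at 9.33, 42.6 and 11.7 CPM, the matrix metalloprotease MMP7, at 9.26, 68.9 and 15.8 CPM, and S100A4, at 16.6, 54.8 and 20.7 CPM in high-scoring, responding and all other cells. Cell cycle differed between these sets of cells: 53.8% of high-scoring and 74.6% of responding cells were called G1, and S phase genes had a median log2 ratio of 0.74 and G2 and mitosis genes 0.79. Without the cell with a score of 709 the counts were 35 and 6.

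**Figure D4:**
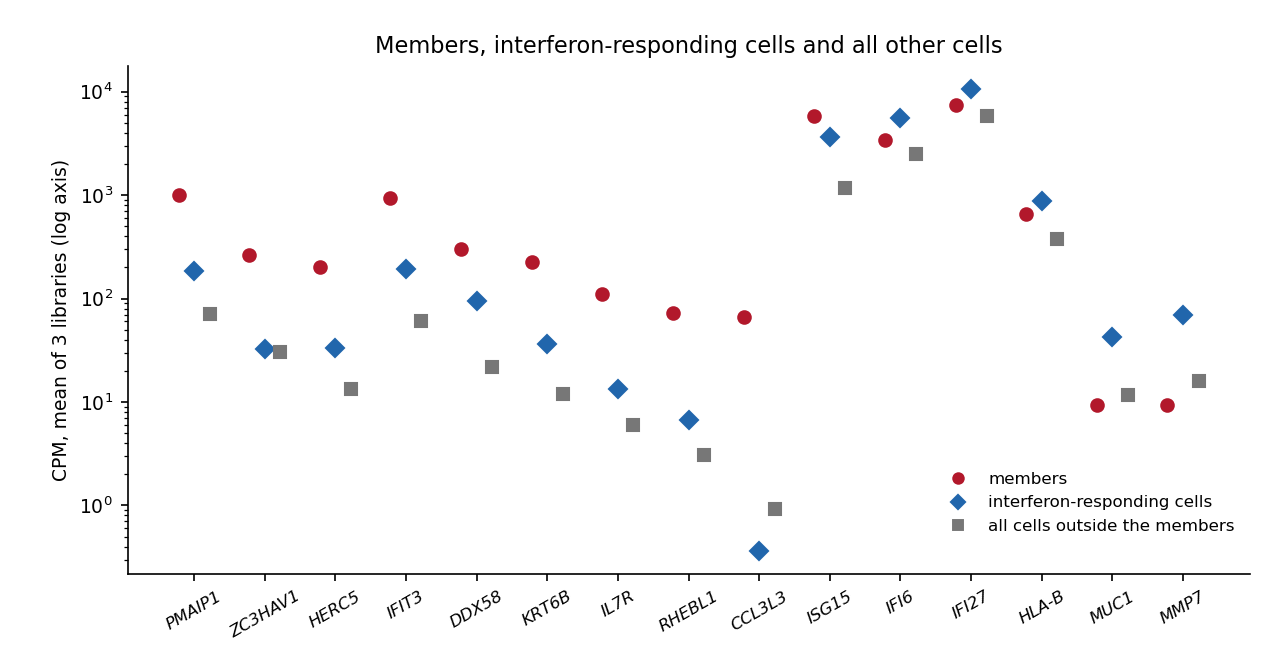
Mean CPM over the 3 libraries (log axis) of 15 genes in high-scoring cells (red circles), in the 169 interferon-responding cells (blue diamonds) and in all cells outside the high-scoring set (grey squares). PMAIP1 (1003, 184 and 70.9 CPM) and the genes to its right up to CCL3L3 are highest in high-scoring cells. HLA-B, MUC1 and MMP7 are highest in responding cells. IFI6 and IFI27 are also highest there, but both are genes of the second score, so the choice of responding cells makes them high. ISG15 and IFIT3 are genes of that score too.

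The ranking by score holds IFNL1, so its place there is fixed by the rule. With all libraries pooled, ISG15 stood at 878, 1326, 2528, 4982 and 7520 CPM for cells ranked 50 to 100%, 10 to 50%, 3 to 10%, 1 to 3% and 0 to 1%. IFI6, a mitochondrial interferon-induced protein gene, stood at 2254, 2736, 3123, 3262 and 3864 CPM in the same bins. IFNL1, a gene of the score, had 0, 0, 1.59, 24.6 and 347 CPM, and IFNB1 was seen in the top 1% alone, at 59.2 CPM. HMGCS1, a sterol synthesis enzyme, stood at 268, 258, 245, 212 and 193 CPM. The top bin holds 56 cells.

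**Figure D5:**
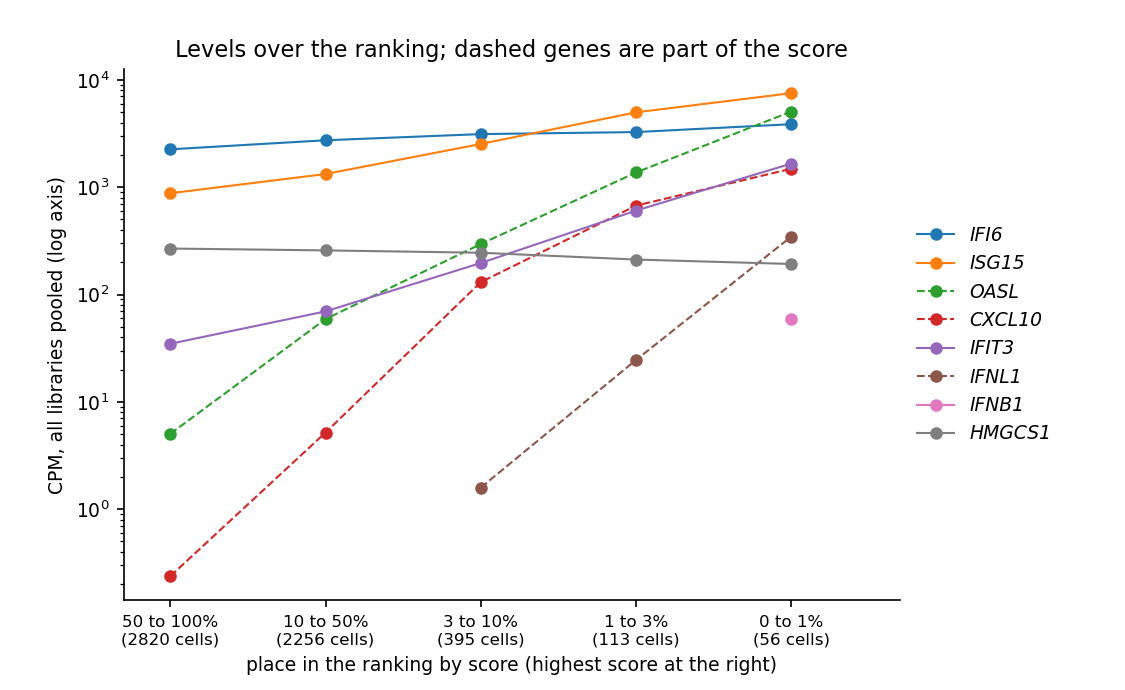
CPM (log axis, libraries pooled) of 8 genes over 5 bins of cells ranked by score, lowest rank at the left and the top 1% (56 cells) at the right; values of 0 are not drawn, and dashed lines mark genes that are part of the score. ISG15 and IFI6 are high in every bin (878 to 7520 and 2254 to 3864 CPM), IFNL1 appears in the top 3 bins and IFNB1 in the last.

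High-scoring cells of different libraries were compared with each other, each library standing for 1 sample. For double-positive over parental high-scoring cells, IFNL1 had a log2 ratio of -0.81 (-1.14 to -0.49), which turns to 0.48 in cells with at least 0.5% mitochondrial UMIs and to 0.34 in cells called G1. In the same pair the log2 ratio was -0.75 for CXCL10 (-0.85 to -0.65), -0.46 for CCL5 (-0.64 to -0.27), -0.20 for OASL (-0.26 to -0.14) and 0.26 for IFIT2 (0.18 to 0.34). For single-positive over parental cells IFNL1 was 1.03 (0.78 to 1.29), and for double-positive over single-positive cells -1.85 (-2.17 to -1.53). Both signs turn without the cell with a score of 709, to -1.62 and 0.81, so they describe that cell. Outside the score, the aldehyde dehydrogenase ALDH3A1 was higher in double-positive than parental high-scoring cells, at 489 and 210 CPM, with 10.0% and 6.11% of its UMIs in 1 cell; the log2 ratio was 1.22 in high-scoring and 0.62 in all other cells. CYP1A1, a xenobiotic-metabolising enzyme, was at 0.515 CPM in double-positive and 44.3 CPM in parental high-scoring cells, where 54.0% came from 1 cell. TFF1, CCL3 and LY6D had their highest level in single-positive cells, with 97.7%, 74.9% and 93.7% of those UMIs in 1 cell each.

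The high-scoring cells had medians of 28339 UMIs and 1.12% mitochondrial UMIs, against 28233 and 1.44% in other cells. Single-positive high-scoring cells were deeper than other single-positive cells, with medians of 46076 and 38003 UMIs, and 41.7% and 26.4% of cells at 50000 UMIs or more. Less than 0.5% mitochondrial UMIs was seen in 27.2% of high-scoring and 20.5% of other cells, and the part of depth or of this share in the results was not tested. Epithelial markers summed to 18085, 19485 and 17777 CPM in double-positive, single-positive and parental high-scoring cells, against 15151, 16083 and 16057 CPM in other cells. The sum is led by KRT17, at 10937 and 6771 CPM (0.69). Of 9 epithelial markers, 6, among them KRT7, KRT8, KRT18 and KRT19, lay below 0 in every library (list median -0.22). By mean log2 ratio 3 of the 9 lay above 0, near the 30.8% of all genes counted. All 7 T-cell and natural killer markers, PTPRC among them, and all 5 plasmacytoid dendritic markers had 0 UMIs in high-scoring cells, and 5 of 7 myeloid markers were at 0, the summed myeloid level being 55.1 to 62.9 CPM in high-scoring cells and 32.0 to 43.9 CPM in other cells. Most of it was CD68, at 55.5 and 32.8 CPM, with log2 ratios of 0.68, 1.12 and 0.53 in the double-positive, single-positive and parental library; its part in the results was not tested. Of B-cell, fibroblast and endothelial markers, 6 of 12 were at 0 and each list summed to at most 2.58 CPM in any library.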

How the data were processed

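The authors deposited 1 matrix of UMI counts per library, and the submitters' processing notes name Cell Ranger 4.0.0, Seurat 4.0.6 and GRCh38; which annotation release they used is not stated there. Raw counts were read with Python 3.11.15 (with pandas 2.3.3 for tables and scipy 1.17.1 for intervals) and summed over the cells of a set within each library. CPM are a set's UMIs per 1000000 UMIs of its own total; values of 3 libraries were averaged with equal weight. A gene was counted with at least 20 CPM as the average over both sets compared. Log2 ratios used 0.5 UMI as a pseudocount, and a gene was called at a 2-fold difference in the same direction in all 3 libraries. Library shares have Clopper-Pearson intervals and ratios conditional binomial ones, at 95%. UMIs of 1 cell are not independent, so intervals cover counting error only. Phases were called with scanpy 1.11.5, and no doublet caller was run. On simulated counts with planted changes, 80 of 80 genes raised 4-fold were called. Of genes lowered to 0.25-fold, the 24 that still passed the 20 CPM floor were called, and the others fell below it and were not counted. The counts were drawn from summed means without differences between cells, so values set by 1 cell were not simulated. The members and gene lists were chosen with earlier results of these data known. Genes named are the 8 of the score, the 20 highest and 8 lowest in the main comparison above 30 CPM, all listed interferon ligands and receptors, up to 8 per list, and the 5 highest and lowest between libraries; KRT6A, CCL3L3's copy CCL3 and single cells were also singled out after their values were seen. Some of these are not reported here. Gene positions are from GENCODE 29 and promoters from RefSeq.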

Additional observations from a re-analysis of the deposited data

Results flagged for a closer look

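A set of 6 genes of the high-scoring cells had log2 ratios over other cells on both sides of 0 in different libraries, and the differences between libraries were not tested. For CXCL8, a neutrophil chemokine, the ratios were -1.02, -1.75 and 1.40 in double-positive, single-positive and parental cells, a range of 3.15. For CXCL3 they were -2.86, -0.22 and 1.27 (range 4.13) and for CXCL2 0.36, -1.39 and 1.24 (range 2.63). For the growth factor CSF2 they were -2.15, -1.26 and 1.06 (range 3.21). For the stress-induced mTOR inhibitor DDIT4 they were -0.69, -1.89 and 1.05 (range 2.94). The trefoil peptide TFF1 had -2.43, 2.88 and 0.73 (range 5.32). In 5 of these genes the parental ratio was the highest. A single cell held 54.3% of the UMIs of CXCL8 in high-scoring cells, 45.2% of CXCL3, 22.7% of CXCL2, 35.8% of CSF2, 56.8% of DDIT4 and 65.8% of TFF1.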

How the results depend on the processing

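The log2 ratio of IFNL1 in high-scoring cells of double-positive over single-positive cells, -1.85, became 0.345 with at least 0.5% mitochondrial UMIs, 0.409 in G1 cells, 0.805 without the highest-scoring cell, -0.155 under 50000 UMIs, -1.27 as a mean per cell, -2.33 for the top 1% and -1.07 for the top 3% within each library. Single-positive over parental cells, 1.03, became -0.735 under 50000 UMIs, -0.0647 in G1 cells, -1.62 without that cell, 0.136, 0.0924 and 1.87 with the mitochondrial minimum, the within-library choice and the top 1%. Double-positive over parental cells, -0.812, became 0.481 with the mitochondrial minimum, 0.344 in G1 cells, -0.329 as a mean per cell and -0.459 for the top 1%. Genes at least 2-fold higher in high-scoring cells, 95, were 155 for the top 1%, and 167 and 58 with floors of 5 and 50 CPM. The 1 lower gene became 11 for the top 1%, 6 in G1 cells and 3 with a floor of 5 CPM, and 0 for the top 5%, log2 scoring, a score lacking 1 gene (lowest), under 50000 UMIs, a mean per cell and a floor of 50 CPM. Against responding cells, the 44 higher genes were 26 under 50000 UMIs, 26 in G1 cells and 77 with a floor of 5 CPM. The 6 lower were 75 and 0 for the top 1% and 5%, 2 to 10 lacking 1 gene, 19 under 50000 UMIs, 15 with the mitochondrial minimum, 10 as a mean per cell, and 34 and 2 with floors of 5 and 50 CPM. The antiviral median of 1.31 was 1.76 for the top 1%, 1.12 under 50000 UMIs, 1.06 with the mitochondrial minimum, 1.12 with a floor of 50 CPM and 1.45 with ambient RNA subtracted. The sensing median of 0.309 was 0.542 for the top 1%, 0.218 lacking 1 gene (lowest), 0.186 under 50000 UMIs, 0.213 with the mitochondrial minimum, 0.224 as a mean per cell, 0.418 with median-of-ratios scaling, 0.220 on split UMIs and 0.187 without the highest-scoring cell. The NF-kB median of 0.245 was 0.714 with a floor of 50 CPM, and that of HLA class I, 0.428, was 0.676 for the top 1%. The lowest left-out gene ratio of 5.03 was 5.24 for the top 1% and 4.69 under 50000 UMIs. Causes were not tested. The setting without the highest-scoring cell was chosen after seeing the data. Of 212 named genes 32 changed sign in at least 1 of 19 settings, as did 6 of 24 list medians; of the 57 called, 0 changed sign, 152 of 1083 values moved and 11 differed by over 1.5 times. The wider NF-kB form was also chosen after seeing the data. No paired analysis was possible because each population had 1 library. With 24 high-scoring single-positive cells, 1 cell can set a library's value.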

Other observations

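Several other lists had no gene at least 2-fold higher in every library, a count near the 1.74% of all genes. Heat shock genes had a median log2 ratio over other cells of -0.24 with 0 of 11 at least 2-fold higher, mitochondrially encoded genes -0.16 with 0 of 13, liver X receptor targets -0.08 with 0 of 4, and genes of retroelement and double-strand RNA control -0.10 with 0 of 8. Of 18 genes of the amino acid and unfolded protein response, with a median of 0.01, XBP1, a transcription factor of the unfolded protein response, was at least 2-fold higher in all 3 libraries, at 163 CPM in high-scoring and 52.9 CPM in other cells. Of 15 squamous keratin and stress genes, with a median of -0.08, 2 were so, KRT6B as given above and the basal keratin KRT14. KRT14 stood at 37.8 and 4.10 CPM, with 22.4% of its UMIs in 1 cell. In high-scoring single-positive cells 1 cell held 50.6% of 81 KRT14 UMIs, and high-scoring double-positive cells had 17 UMIs in 9 cells.

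Barcodes with at least 2000 but fewer than 6500 UMIs, outside the cells described, reached the lowest high score in 0 of 87 double-positive, 1 of 57 single-positive and 3 of 90 parental barcodes, and none held an IFNL1 UMI.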
